A study of Mus musculus with 15 samples.

Results

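The insulin-like growth factor (IGF) genes described here are 10 rows of the count table taken by name: the ligands Igf1 and Igf2, the receptors Igf1r and Igf2r, and the binding proteins Igfbp2, Igfbp3, Igfbp4, Igfbp5, Igfbp6 and Igfbp7. They are 10 of the 22063 rows of the table, and all 10 had enough reads to be tested, with 120 to 93013 reads per gene and library. RNA-seq was performed on primary mouse embryonic fibroblasts of strain C57Bl/6 at passage 2, electroporated with a plasmid that carries Crxos, Oboxa1, Oboxa4 or Oboxa7, or with the empty vector as control, and collected after 48 h. There were 3 libraries for each of the 5 conditions, and no source states that they came from separate cultures, so p-values may reflect only technical spread. Crxos and the Obox genes encode homeodomain transcription factors that are normally active in the preimplantation embryo, and the study asked which genes respond when they are expressed ectopically. The inserts carried a V5 tag and were driven by the CMV promoter, a strong constitutive promoter of viral origin. All cells, the control included, came through electroporation and through a sort for the green fluorescent protein that the plasmid also encodes, so that no condition represents untouched fibroblasts.

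Igf1 and Igf2 are secreted growth factors that signal through Igf1r, a receptor tyrosine kinase, and promote growth, survival and proliferation of mesenchymal cells. Igf2r, which is also the cation-independent mannose 6-phosphate receptor, lacks kinase activity and takes Igf2 into the cell for degradation. The binding proteins are secreted as well, hold the ligands outside the cell and either restrain or prolong their action, and are themselves cut by extracellular proteases.

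The total count per library was 28440415 to 42778823. The transfected gene identified each group of libraries: in its own libraries it had 5586 to 12033 reads (Crxos), 2009 to 5956 reads (Oboxa1, the row Obox6), 2338 to 3712 reads (Oboxa4, the row Obox1) or 2227 to 3899 reads (Oboxa7), no other library had more than 34 reads of any of them, and the control libraries had 0 reads of each. All 8 fibroblast markers were detected, with a summed level of 17988 to 27509 CPM (reads scaled to library size), and the summed hepatocyte markers, from the organ that is the main source of circulating Igf1, stayed at or under 0.247 CPM. The libraries fell into 2 sets that the labels do not name. On principal component 1 of the 1000 most variable genes, which held 56.5% of their variance, 5 libraries (the 3 Crxos libraries, Oboxa1 replicate 3 and control replicate 1) stood apart from the other 10. Igfbp5 and Igfbp7 were among those 1000 genes, and all 15 libraries stayed in the same set when the IGF genes were left out. The study matched its experiments by date, but the date of a library is not given in the sources used here, and whether the sets follow dates was not tested. Where the sets change the call of an IGF gene, or the call of a named gene of another list, the value from a within-set fit, which compares libraries of the same set only, is given beside the fit of all 15 libraries. In it, Crxos rests on control replicate 1, Oboxa4 and Oboxa7 on control replicates 2 and 3, and Oboxa1 on both, and a single library is assumed to vary like the libraries of the other groups. The sets were drawn from the same counts that the fit tests, so its adjusted p-values may be too small. Within the smaller set, control replicate 1 lay at -20.6 on the component, and the Crxos libraries and Oboxa1 replicate 3 at -31.8 to -32.9.

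Per kilobase of gene length the IGF genes spanned a wide range in these fibroblasts. As RPKM (reads scaled to library size and gene length), averaged over the 15 libraries, Igf2 was at 449 RPKM and ranked 67 among the 14012 genes tested. Igfbp7 followed at 225 RPKM, Igfbp4 at 129 RPKM, Igfbp5 at 89.2 RPKM, Igf2r at 68.2 RPKM, Igfbp3 at 54.9 RPKM, Igfbp6 at 38.1 RPKM, Igfbp2 at 29.8 RPKM and Igf1r at 21.5 RPKM. Igf1 was the least abundant at 1.03 RPKM and ranked 11076, so that its values rest on 120 to 523 reads per library. The strand setting of the counting is not given in the sources used here. Without it, reads of Igf1, Igf2, Igf2r and Igfbp7 cannot be told apart from those of the antisense transcripts Igf1os, Igf2os, Airn and Gm34648 that overlap them. Igf2 also shares 16048 bases with Gm49394, a protein-coding gene on the same strand, which a strand setting would not separate. Igf2 exceeded Igf1 in every library, with an RPKM ratio of 380 to 446 in Crxos cells, 369 to 482 in Oboxa1 cells, 331 to 387 in Oboxa4 cells, 442 to 460 in Oboxa7 cells and 693 to 890 in control cells (lowest and highest of 3 libraries), so that the control libraries lay above all others.

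Of the 10 genes, 6 rose and 1 fell in Crxos cells against control, 3 rose in Oboxa1 cells, 3 rose in Oboxa4 cells and 2 rose in Oboxa7 cells, with 0 called lower for each Obox gene. A call required an adjusted p under 0.05 in edgeR's quasi-likelihood test and a log2 fold change of at least 0.32 in either direction. The same rule called 8.38% of all tested genes higher in Crxos cells, 4.25% in Oboxa1 cells, 8.06% in Oboxa4 cells and 3.33% in Oboxa7 cells, and it called 8.4%, 3.28%, 5.83% and 2.34% lower in the same order. At an unadjusted p under 0.05, 1 of the 10 was lower in Oboxa1 cells and 0 in Oboxa4 or Oboxa7 cells, and DESeq2 also called 0 lower for each Obox gene. The median log2 fold change of the 10 was 0.43 for Crxos, 0.44 for Oboxa1, 0.21 for Oboxa4 and 0.07 for Oboxa7, and the median over all tested genes was -0.0013, 0.0026, 0.0024 and -0.00071 in the same order. A model of only the compared groups called 0 of the 10 genes for Oboxa1, and 49 higher and 18 lower of all tested genes. The 4 comparisons share the same 3 control libraries and are therefore not independent. In the within-set fit 6, 5, 5 and 4 of the genes rose for Crxos, Oboxa1, Oboxa4 and Oboxa7, where 6.39%, 8.91%, 12.7% and 7.62% of all tested genes did, and Igfbp4 fell in each, where 5.7%, 5.74%, 7.71% and 4.3% of all tested genes did.

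**Figure D1:**
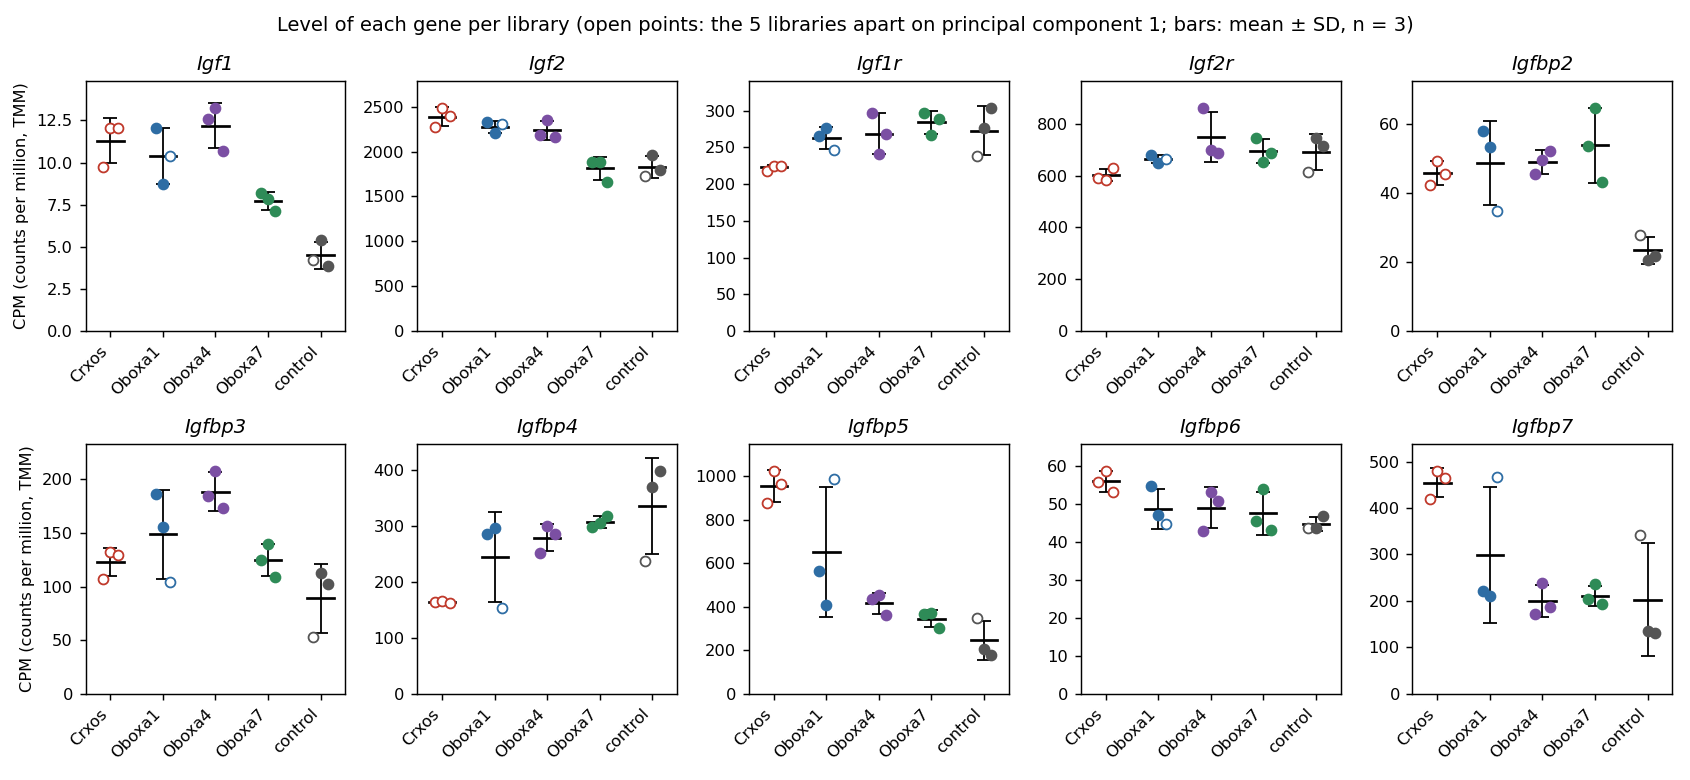
Level of each IGF gene in CPM after TMM scaling (vertical axes, from 0) in the 3 libraries of each condition (horizontal axes), with the mean and SD as bars and the 5 libraries that stand apart on principal component 1 as open points. Igf1 and Igfbp2 lay above all control libraries in each of the 4 conditions, while for Igfbp4 and Igfbp7 the open and the filled points do not overlap.

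Igf1 (chr10:87858265-87937047 in GRCm38.p6) rose after each of the 4 transfected genes. It had 9.76, 12.1 and 12.1 CPM in Crxos cells, 12.0, 8.72 and 10.4 CPM in Oboxa1 cells, 12.6, 13.3 and 10.7 CPM in Oboxa4 cells and 8.17, 7.83 and 7.11 CPM in Oboxa7 cells, against 4.19, 5.41 and 3.85 CPM in control cells. Every transfected library exceeded every control library, including those of the set apart, and the Oboxa7 libraries lay below all libraries of the other transfected genes. The log2 fold change was 1.33 (SE 0.15, adjusted p = 0.000229) for Crxos, 1.21 (SE 0.15, adjusted p = 0.00063) for Oboxa1, 1.44 (SE 0.15, adjusted p = 0.000192) for Oboxa4 and 0.78 (SE 0.15, adjusted p = 0.00933) for Oboxa7. In a sorted population a change in the share of cells that express a gene and a change in its RNA per cell cannot be told apart. The summed fibroblast markers were at 19989 to 27509 CPM in the 12 transfected libraries, against 17988 to 19243 CPM in control cells, mostly from Col1a1, Col1a2 and Vim. Of the 8 markers, 7 lay above all control libraries in Crxos cells, 3 in Oboxa1 cells, 4 in Oboxa4 cells and 2 in Oboxa7 cells, while Vim lay below them in Crxos cells (4961 to 5000 CPM, against 5563 to 6667 CPM) and Pdgfra in Oboxa4 and Oboxa7 cells (222 to 253 and 184 to 208 CPM, against 270 to 299 CPM). The summed skeletal myoblast markers, mostly Des, were at 7.52 to 20.9 CPM in the transfected libraries, against 5.55 to 6.56 CPM in control cells. Myod1, of the same list, stayed at or under 0.0796 CPM. The summed chondrocyte markers (86.8 to 104 CPM, against 85.3 to 131 CPM in control cells), macrophage markers and Schwann cell markers overlapped the control libraries. The part of these lists in the higher Igf1 was not tested. The within-set fit gave 1.43, 1.21, 1.39 and 0.72, all called, whereas a model of only the compared groups left the Oboxa1 value uncalled at adjusted p = 0.058.

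Igf2 (chr7:142650768-142666816), the growth factor of fetal tissues, changed less than Igf1. It had 2277, 2489 and 2401 CPM in Crxos cells, 2327, 2203 and 2309 CPM in Oboxa1 cells, 2187, 2357 and 2165 CPM in Oboxa4 cells and 1890, 1888 and 1663 CPM in Oboxa7 cells, against 1724, 1963 and 1795 CPM in control cells. The libraries of Crxos, Oboxa1 and Oboxa4 all lay above the control libraries, and those of Oboxa7 overlapped them. Igf2 rose in Crxos cells, with a log2 fold change of 0.39 (SE 0.07, adjusted p = 0.00179). For Oboxa1 the log2 fold change of 0.319 (adjusted p = 0.00994) was just under the required 0.322. Igf2 was called higher for Oboxa1 in 7 of 12 alternative fits and in 6 of 15 fits with a library left out. For Oboxa4 the value of 0.29 (adjusted p = 0.00883) stayed under the required fold change, and for Oboxa7 the value was -0.011 (adjusted p = 0.942). With Igf1 included, all 3 libraries of a condition lay above the 3 control libraries for 6 of the 10 genes in Crxos cells, 4 in Oboxa1 cells, 5 in Oboxa4 cells and 2 in Oboxa7 cells, which 19.8%, 11.3%, 19.8% and 16.8% of all tested genes did.

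The receptors differed little between conditions, and neither was called against control in any of the 4 comparisons. Igf1r (chr7:67952257-68233668) had 218, 225 and 225 CPM in Crxos cells, against 238, 276 and 304 CPM in control cells, and ranged from 241 to 298 CPM in the 9 Obox libraries. The Crxos libraries lay below all control libraries, as they did for 2 of the 10 genes and for 21% of all tested genes. The log2 fold change of -0.29 (adjusted p = 0.0302) was under the required fold change, and within the smaller set it was -0.10 (adjusted p = 0.526). Igf2r (chr17:12682406-12769706) had 591, 584 and 629 CPM in Crxos cells and 612, 745 and 714 CPM in control cells, with a log2 fold change of -0.20 (adjusted p = 0.124). The ratio of ligand to clearance receptor, Igf2 over Igf2r in RPKM, was 8.45 ± 0.521 in Crxos cells, 7.28 ± 0.0805 in Oboxa1 cells, 6.41 ± 0.915 in Oboxa4 cells, 5.55 ± 0.517 in Oboxa7 cells and 5.64 ± 0.325 in control cells (SD, n = 3).

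Igfbp2 and Igfbp5, which encode binding proteins with high affinity for both ligands, are neighbours on chromosome 1. In GRCm38.p6 Igfbp2 spans chr1:72824480-72852474 on the plus strand and Igfbp5 spans chr1:72858065-72874865 on the minus strand, with their 3′ ends facing each other across 5590 bases that hold 0 other protein-coding genes. Their upstream windows are shown because the genes share a locus and both rose, while their levels across the libraries differed. The windows are the 250 bases before an annotated start of each gene, chr1:72824230-72824479 for Igfbp2 and chr1:72874866-72875115 for Igfbp5, both written 5′ to 3′ on the strand of the gene from RefSeq. Capitals mark matches, on either strand, to the GC box GGGCGG, the CCAAT box, the letters TATAA of a TATA box, or TAATCC, which is the motif of Crx and Otx type homeodomains.
Igfbp2: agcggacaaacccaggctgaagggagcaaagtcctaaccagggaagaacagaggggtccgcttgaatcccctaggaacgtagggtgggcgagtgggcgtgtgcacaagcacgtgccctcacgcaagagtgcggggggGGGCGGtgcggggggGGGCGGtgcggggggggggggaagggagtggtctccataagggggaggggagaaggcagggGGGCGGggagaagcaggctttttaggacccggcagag
Igfbp5: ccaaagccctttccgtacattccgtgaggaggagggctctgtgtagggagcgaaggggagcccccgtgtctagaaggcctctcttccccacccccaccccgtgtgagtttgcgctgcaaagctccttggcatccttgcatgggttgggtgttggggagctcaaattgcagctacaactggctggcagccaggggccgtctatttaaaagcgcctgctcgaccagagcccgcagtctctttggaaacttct
The Igfbp2 window shown held 3 matches to GGGCGG and a GC content of 67.2%. The Igfbp5 window held 0 matches to any of the 4 motifs and a GC content of 58.8%. The median GC content was 52.4% over all 32851 windows of the same length. A further Igfbp2 window, chr1:72825137-72825386, is not shown. It also held 0 matches to any of the 4 motifs, with a GC content of 56.4%, so the contrast holds only for the window shown. Of the 14 windows of the 10 IGF genes, 0 held TAATCC, which 6.25% of all windows held, and 6 held GGGCGG, which 32.7% of all windows held. TATAA was found in 2 of the 14 (22.8% of all windows) and CCAAT in 3 (33.8% of all windows). These are matches of letters within the window and no statement on binding.

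Igfbp2 rose after all 4 transfected genes. It had 42.3, 49.1 and 45.5 CPM in Crxos cells, 57.9, 53.1 and 34.8 CPM in Oboxa1 cells, 45.3, 49.5 and 52.2 CPM in Oboxa4 cells and 53.4, 64.6 and 43.1 CPM in Oboxa7 cells, against 27.9, 20.6 and 21.8 CPM in control cells. All 12 transfected libraries lay above all 3 control libraries, with Oboxa1 replicate 3 the lowest of the transfected and control replicate 1 the highest of the controls. The log2 fold change was 0.96 (SE 0.18, adjusted p = 0.00272) for Crxos, 1.05 (SE 0.18, adjusted p = 0.00356) for Oboxa1, 1.07 (SE 0.18, adjusted p = 0.00175) for Oboxa4 and 1.20 (SE 0.18, adjusted p = 0.00287) for Oboxa7. The within-set fit gave 0.71, 1.03, 1.21 and 1.34, all called, and a model of only the compared groups left Oboxa1 uncalled at adjusted p = 0.0879.

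Igfbp5 had the largest change of the 10 genes in Crxos cells. It had 876, 1026 and 963 CPM in Crxos cells, 562, 406 and 985 CPM in Oboxa1 cells, 435, 451 and 359 CPM in Oboxa4 cells and 366, 369 and 299 CPM in Oboxa7 cells, against 347, 206 and 180 CPM in control cells. Oboxa1 replicate 3 was at the level of the Crxos libraries and control replicate 1 at the level of the Oboxa7 libraries, and both belong to the set apart. The log2 fold change was 1.97 (SE 0.28, adjusted p = 0.000615) for Crxos and 1.41 (SE 0.28, adjusted p = 0.00726) for Oboxa1, while 0.76 (adjusted p = 0.0619) for Oboxa4 and 0.50 (adjusted p = 0.277) for Oboxa7 did not pass. Within the sets Igfbp5 was called higher after all 4 genes, at 1.46 for Crxos, 1.39 for Oboxa1, 1.10 for Oboxa4 and 0.84 for Oboxa7. The Oboxa4 value was also called without control replicate 1 (1.11, adjusted p = 0.0111), without Oboxa1 replicate 2 (0.77, adjusted p = 0.0335) and without Oboxa1 replicate 3 (0.77, adjusted p = 0.0107), and the Oboxa1 value was not in a model of only the compared groups (adjusted p = 0.142).

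**Figure D2:**
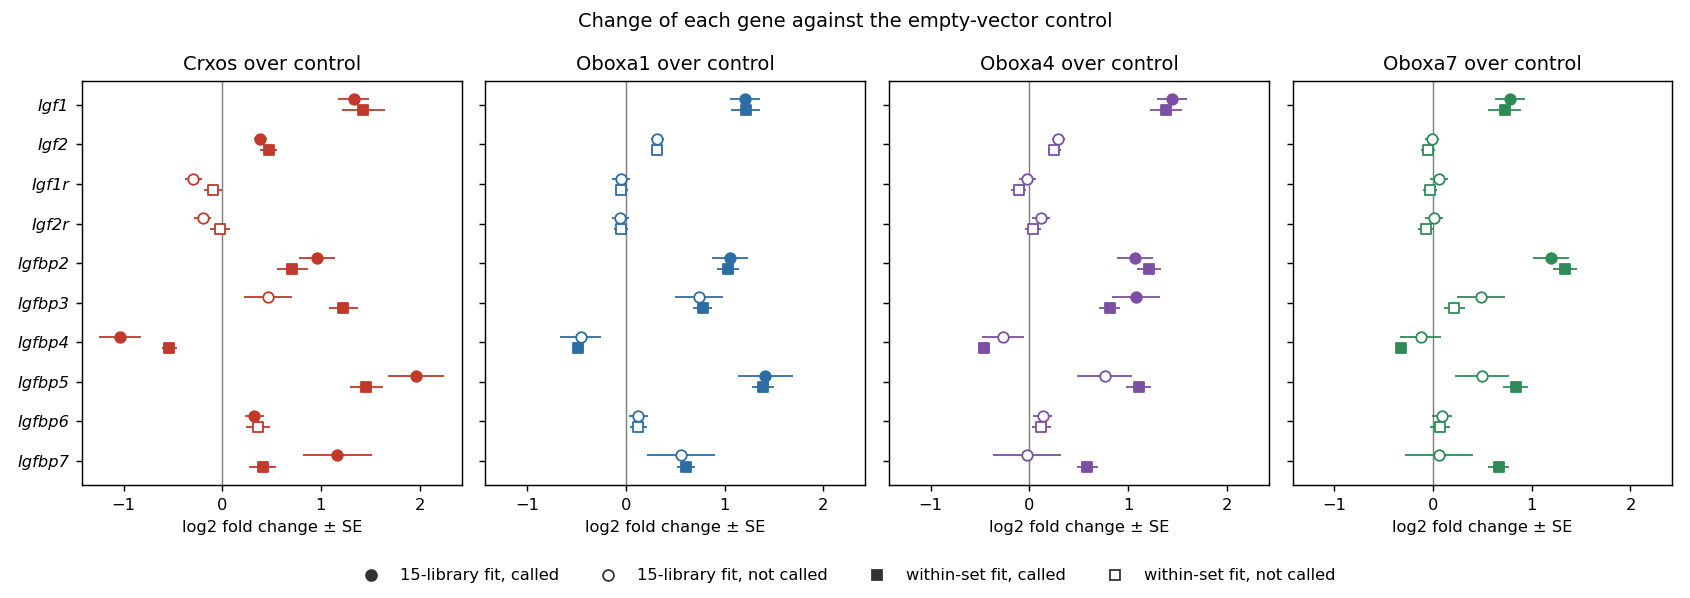
Log2 fold change over control with its SE (horizontal axes) for each IGF gene (rows) and each transfected gene (panels), from the fit of all 15 libraries (circles) and within the 2 sets (squares), with filled symbols for called values. Igf1 and Igfbp2 are called in all 4 panels by both fits, whereas Igfbp4, Igfbp5 and Igfbp7 are called in all 4 panels only within the sets.

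Igfbp3 (chr11:7206086-7215498) encodes the main carrier of IGFs in serum. It had 107, 132 and 129 CPM in Crxos cells, 187, 155 and 105 CPM in Oboxa1 cells, 184, 208 and 173 CPM in Oboxa4 cells and 125, 140 and 109 CPM in Oboxa7 cells, against 52.6, 112 and 102 CPM in control cells. The Oboxa4 libraries lay above all control libraries, and in each of the other conditions at least 1 library fell below the highest control. Igfbp3 rose in Oboxa4 cells, with a log2 fold change of 1.08 (SE 0.24, adjusted p = 0.00713), and did not pass for Oboxa1 (0.74, adjusted p = 0.061), Oboxa7 (0.49, adjusted p = 0.218) or Crxos (0.46, adjusted p = 0.176). Control replicate 1 was the lowest of all 15 libraries for this gene. Against that library alone, in the within-set fit, the Crxos value was 1.23 (adjusted p = 3.87e-05), and the fit also called Oboxa1 (0.78) and Oboxa4 (0.81) but not Oboxa7 (0.22, adjusted p = 0.166).

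Igfbp4 (chr11:99040005-99052655), which encodes a binding protein known to inhibit IGF action, was the 1 gene of the 10 that fell. It had 163, 167 and 163 CPM in Crxos cells, 286, 296 and 153 CPM in Oboxa1 cells, 252, 300 and 287 CPM in Oboxa4 cells and 298, 306 and 319 CPM in Oboxa7 cells, against 238, 371 and 400 CPM in control cells. The 5 libraries of the set apart had 153 to 238 CPM and the other 10 had 252 to 400 CPM, without overlap. The summed epithelial markers, mostly Krt18, split in the same way (2.10 to 4.45 CPM in the 5 and 5.09 to 13.97 CPM in the 10), with Epcam at or under 0.77 CPM and Krt5 at or under 0.101 CPM. So did the summed adipocyte markers, mostly Pparg and Fabp4 (7.37 to 13.4 CPM in the 5 and 20.2 to 28.5 CPM in the 10), with Adipoq at or under 0.0822 CPM and Lep at 0 reads throughout, and the part of either list in the Igfbp4 result was not tested. Igfbp4 fell in Crxos cells, with a log2 fold change of -1.03 (SE 0.21, adjusted p = 0.00439), and did not pass for Oboxa1 (-0.46, adjusted p = 0.172), Oboxa4 (-0.27, adjusted p = 0.381) or Oboxa7 (-0.13, adjusted p = 0.747). Within the sets it was called lower after all 4 genes, at -0.54 for Crxos, -0.48 for Oboxa1, -0.46 for Oboxa4 and -0.32 for Oboxa7.

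Igfbp7 (chr5:77349240-77408045) encodes a relative of the binding proteins with low affinity for IGFs, found in vessel walls and matrix, and Igfbp6 (chr15:102144186-102149512) a binding protein that prefers Igf2. Igfbp7 had 419, 481 and 465 CPM in Crxos cells, 220, 209 and 466 CPM in Oboxa1 cells, 172, 238 and 187 CPM in Oboxa4 cells and 203, 236 and 194 CPM in Oboxa7 cells, against 342, 135 and 130 CPM in control cells. The split between the sets was again without overlap, with 342 to 481 CPM in the 5 libraries and 130 to 238 CPM in the 10. The 5 endothelial markers summed to 9.998 to 13.7 CPM in the 5 libraries and 10.8 to 25.01 CPM in the 10, mostly from Kdr at 8.07 to 21.6 CPM, with Tek at or under 2.18, Vwf at or under 1.02, Cdh5 at or under 0.577 and Pecam1 at or under 0.447 CPM, and their part in the Igfbp7 result was not tested. Igfbp7 rose in Crxos cells, with a log2 fold change of 1.16 (SE 0.35, adjusted p = 0.0283), a call that was lost without any 1 of the 3 Crxos libraries, control replicate 2 or control replicate 3 (adjusted p = 0.0536 to 0.12) and in a model of only the compared groups (adjusted p = 0.0623). The value was 0.56 for Oboxa1, -0.027 for Oboxa4 and 0.056 for Oboxa7, none called (adjusted p = 0.315, 0.966 and 0.94). Within the sets all 4 were called higher, at 0.41 for Crxos, 0.61 for Oboxa1, 0.58 for Oboxa4 and 0.67 for Oboxa7, and without control replicate 1 the Crxos value was 1.78. Igfbp6 varied little, with 55.8, 58.7 and 53.1 CPM in Crxos cells, 42.8 to 54.6 CPM in the 9 Obox libraries and 43.5, 43.7 and 46.6 CPM in control cells. Its log2 fold change of 0.32 (SE 0.10, adjusted p = 0.0302) in Crxos cells was just past the required fold change. It was not called within the smaller set (0.36, adjusted p = 0.0546) or without Crxos replicate 1, Crxos replicate 2 or any 1 of the 3 control libraries (adjusted p = 0.0524 to 0.109).

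The make-up of the binding proteins also differed between libraries. As a share of the summed RPKM of the 6, Igfbp7 took 50.5 ± 0.476% in Crxos cells, 39.2 ± 11.8% in Oboxa1 cells, 31.5 ± 2.20% in Oboxa4 cells, 34.3 ± 0.969% in Oboxa7 cells and 35.0 ± 15.7% in control cells (SD, n = 3). The wide spread in Oboxa1 and control cells came from 1 library each: Igfbp7 took 52.9% in Oboxa1 replicate 3 and 53.2% in control replicate 1. Igfbp4 took 10.7 ± 0.638% in Crxos cells, 20.6 ± 9.19% in Oboxa1 cells, 26.1 ± 1.40% in Oboxa4 cells, 29.6 ± 2.86% in Oboxa7 cells and 36.7 ± 13.1% in control cells. Control replicates 2 and 3, at 42.7% and 45.6%, were the only libraries of the 15 in which Igfbp4 took the largest share, and Igfbp7 took it in the other 13. Igfbp5 took 22.0 ± 0.319% in Crxos cells, 17.7 ± 4.98% in Oboxa1 cells, 13.7 ± 1.69% in Oboxa4 cells, 11.6 ± 0.878% in Oboxa7 cells and 8.94 ± 2.03% in control cells. The summed level of the 6 was 742 ± 48.2 RPKM in Crxos cells, 607 ± 107 RPKM in Oboxa1 cells, 518 ± 53.1 RPKM in Oboxa4 cells, 506 ± 38.7 RPKM in Oboxa7 cells and 458 ± 62.8 RPKM in control cells. These shares are descriptions, and no test was run on them.

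**Figure D3:**
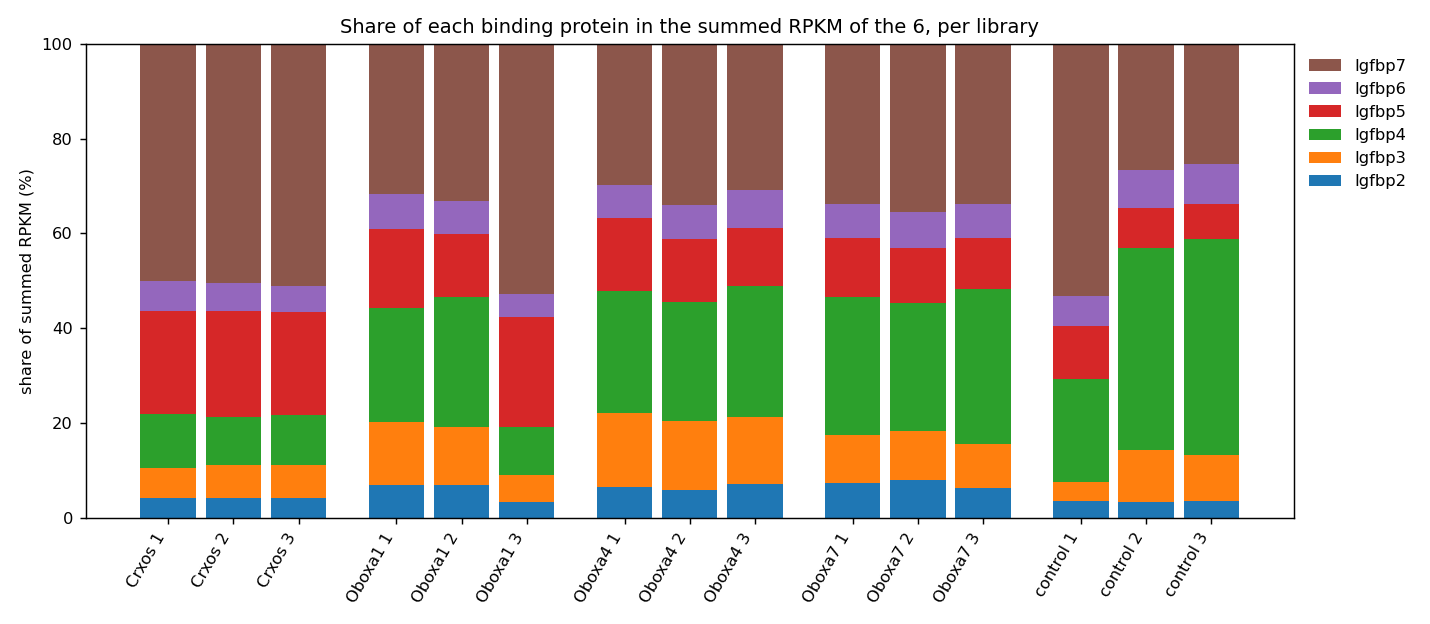
Share of each of the 6 binding proteins in their summed RPKM, in percent (vertical axis), for each of the 15 libraries (bars, replicate number beside the condition). Igfbp7 takes between 50.1% and 53.2% in the 3 Crxos libraries, Oboxa1 replicate 3 and control replicate 1, and Igfbp4 takes its highest shares in control replicates 2 and 3.

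Between the Obox genes, 0 of the 10 genes were called in any of the 3 pairs by edgeR, where the same test called 0.0285% of all tested genes for Oboxa4 against Oboxa1, 0.186% for Oboxa4 against Oboxa7 and 0.121% for Oboxa1 against Oboxa7. At an unadjusted p under 0.05 there were 1, 3 and 3 of the 10, beside 9.28%, 10.6% and 10.7% of all tested genes. DESeq2 called 0, 1 and 1 of the 10 higher and 0 lower, beside 4, 46 and 43 of all tested genes higher and 2, 66 and 49 lower. Closest to the threshold were Igf1, higher in Oboxa4 than in Oboxa7 cells by 0.66 on the log2 scale (SE 0.15, adjusted p = 0.0955), and Igf2 in the same pair (0.30, SE 0.07, adjusted p = 0.0997). Within the sets, Igf1 (0.66, adjusted p = 0.00513) and Igfbp3 (0.60, adjusted p = 0.000949) were called higher in Oboxa4 than in Oboxa7 cells, and Igfbp3 (0.46, adjusted p = 0.0276) and Igfbp5 (0.49, adjusted p = 0.0394) higher in Oboxa1 than in Oboxa7 cells. In that fit 1.91% and 0.707% of all tested genes were called higher in these pairs.

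Set against the mean of the 3 Obox genes, Crxos had higher Igfbp5 (1.07, SE 0.21, adjusted p = 0.00768) and Igfbp7 (0.97, SE 0.27, adjusted p = 0.0176) and lower Igfbp4 (-0.75, SE 0.18, adjusted p = 0.0108). The same contrast called 7.84% of all tested genes higher and 9.66% lower. It runs along the split of the libraries, since the 3 Crxos libraries stand in the smaller set and 8 of the 9 Obox libraries in the larger. With a term for the sets the values were 0.27, -0.10 and -0.011, none called (adjusted p = 0.583, 0.851 and 0.985). In that fit 0 of all tested genes were called higher and 1 lower, so the absence of a call says little about these 3 genes. The call of Igfbp7 was also lost without any 1 of the 3 Crxos libraries (adjusted p = 0.056 to 0.0703), and that of Igfbp4 without Crxos replicate 1 (adjusted p = 0.051). In a comparison within the smaller set, chosen after the data had been seen, the 3 Crxos libraries were set against Oboxa1 replicate 3, and 0 of the 10 genes were called by edgeR, with 2 of the 10 at an unadjusted p under 0.05 and 4 of all tested genes called. DESeq2 was not run on it. Igfbp4 differed by 0.10, Igfbp5 by -0.04 and Igfbp7 by -0.04 (SE 0.08, 0.15 and 0.13). Oboxa4 and Oboxa7 have no library in the smaller set, so between Crxos and either of them the transfected gene and the set cannot be told apart. Between Crxos and Oboxa1 the comparison within the set rests on 1 Oboxa1 library.

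Of the genes that act on the binding proteins, several rose as well. The list of binding protein proteases and their inhibitors had 15 of 16 genes tested, of which 8 rose and 2 fell in Crxos cells, 2 rose in Oboxa1 cells, 3 in Oboxa4 cells and 1 in Oboxa7 cells, with 0 called lower by edgeR for the Obox genes (0, 1 and 0 lower at an unadjusted p under 0.05 for Oboxa1, Oboxa4 and Oboxa7). Of all tested genes, 8.38%, 4.25%, 8.06% and 3.33% were called higher, from Crxos to Oboxa7, and 8.4%, 3.28%, 5.83% and 2.34% lower. A single call among 15 genes, as for Oboxa7, is near these shares. The median log2 fold change of the list was 0.53, 0.51, 0.14 and 0.09 for Crxos, Oboxa1, Oboxa4 and Oboxa7. Pappa2, a metalloprotease that cuts Igfbp3 and Igfbp5, rose in Crxos cells (2.20, SE 0.33, adjusted p = 0.000738) and Oboxa1 cells (1.54, SE 0.34, adjusted p = 0.0116). Pappa, its relative that cuts Igfbp4, rose in Crxos cells (1.68, SE 0.40, adjusted p = 0.0101). Mmp2, a gelatinase, rose after all 4 genes, by 0.55 for Crxos, 0.51 for Oboxa1, 0.58 for Oboxa4 and 0.37 for Oboxa7. Plat, the tissue plasminogen activator, rose in Crxos cells (1.02), as did the serine protease Htra3 (1.55), which also rose in Oboxa4 cells (0.90), where the metalloprotease Adamts1 rose too (1.05). Stc2, which encodes a secreted inhibitor of Pappa, fell in Crxos cells (-0.87, adjusted p = 0.0277), and so did Plau, the urokinase plasminogen activator (-0.46, adjusted p = 0.0217). Within the sets 7, 7, 7 and 6 of the 15 were called higher for Crxos, Oboxa1, Oboxa4 and Oboxa7 and 0, 1, 1 and 1 lower. The shares of all tested genes called in the within-set fit are those given above for it. In that fit Pappa and Pappa2 were called higher after all 4 genes, by 0.60 to 1.00 and by 0.85 to 2.05, and so was Htra3, at 0.88 for Crxos, 1.01 for Oboxa1, 1.41 for Oboxa4 and 0.67 for Oboxa7. Adamts1 was also called higher after all 4, at 0.54 for Crxos, 0.52 for Oboxa1, 0.79 for Oboxa4 and 0.47 for Oboxa7. Plat was called higher in Crxos (0.73), Oboxa1 (0.53) and Oboxa4 cells (0.46) but not in Oboxa7 cells (0.25). Stc2 was not called in Crxos cells in that fit but was lower after each Obox gene, at -0.36 to -0.71, and Plau was not called after any (-0.16 in Crxos cells, adjusted p = 0.291).

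**Figure D4:**
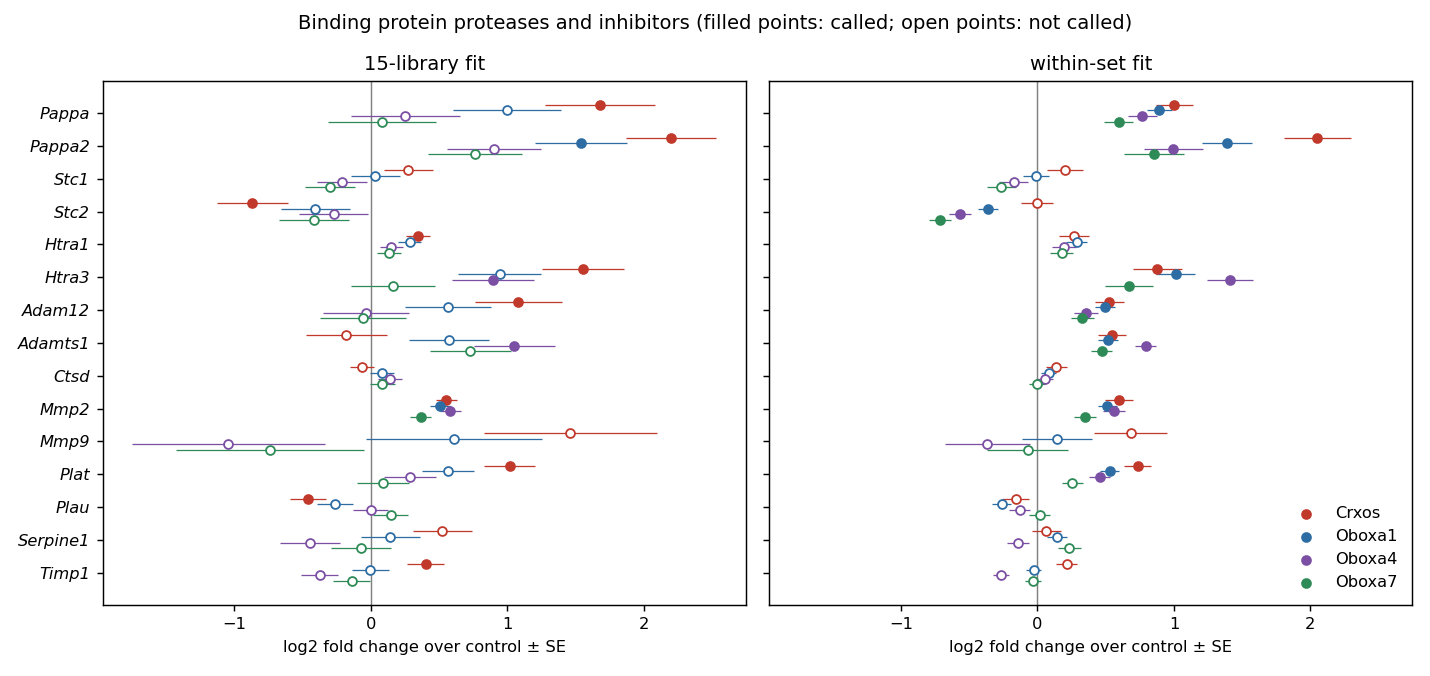
Log2 fold change over control with its SE (horizontal axes) of the 15 tested genes of binding protein proteases and inhibitors (rows) for each transfected gene (colours), from the fit of all 15 libraries (left) and within the 2 sets (right), with filled points for called values. Mmp2 is called higher for all 4 genes on both sides, and Pappa and Pappa2 are called for all 4 only within the sets.

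Genes of receptor signalling inside the cell were called against control about as often as all tested genes. Of 30 such genes 29 were tested, and 2 rose and 2 fell in Crxos cells, 0 rose and 1 fell in Oboxa1 cells, 2 rose and 1 fell in Oboxa4 cells, and 1 rose and 0 fell in Oboxa7 cells, with medians of -0.036, -0.0026, -0.0080 and -0.034, where the background is that given above for each comparison (8.38% higher and 8.4% lower for Crxos, for example). The within-set fit called 1, 1, 3 and 0 higher and 2, 1, 1 and 0 lower. At an unadjusted p under 0.05, 5 were higher and 10 lower in Crxos cells. For Oboxa1, Oboxa4 and Oboxa7, 4 each were higher and 2, 1 and 3 lower. Of all tested genes 37.4%, 28.2%, 36.9% and 26.3% passed it in either direction, from Crxos to Oboxa7. Set against the mean of the 3 Obox genes, which runs along the sets, 2 of the 29 were called higher in Crxos cells and 7 lower. All tested genes were called there at 7.84% higher and 9.66% lower. Pik3cb, a catalytic subunit of phosphoinositide 3-kinase, fell in Crxos cells (-0.81, adjusted p = 0.00047), Oboxa1 cells (-0.47, adjusted p = 0.0161) and Oboxa4 cells (-0.40, adjusted p = 0.0198). Grb14, an adaptor that inhibits receptor signalling, fell in Crxos cells (-0.57), where Rictor, a subunit of the second mTOR complex, and the cytokine signalling suppressor Socs3 rose (0.46 and 0.45). Within the sets Socs3 was not called in Crxos cells (0.15, adjusted p = 0.51) but was in Oboxa1 cells (0.36) and Oboxa4 cells (0.44). Grb10, another inhibitory adaptor, and Irs1, the adaptor that couples the receptor to phosphoinositide 3-kinase, rose in Oboxa4 cells (0.46 and 0.47), and Pik3r3, a regulatory subunit of that kinase, rose in Oboxa7 cells (0.36), a call that was lost within the sets (0.32, adjusted p = 0.0124), just under the required fold change. Of 10 further ligands, receptors and relatives of the family 4 were tested, the insulin receptor Insr among them, and 0 were called in any comparison with control by edgeR (0 higher and 1, 1, 2 and 1 lower at an unadjusted p under 0.05 for Crxos, Oboxa1, Oboxa4 and Oboxa7).

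Proteins outside the family that carry an IGFBP-type domain moved in both directions. Of 13 listed genes 10 were tested, of which 4 rose and 3 fell in Crxos cells, 1 rose and 1 fell in Oboxa1 cells, 3 rose and 2 fell in Oboxa4 cells, and 1 rose in Oboxa7 cells. Of all tested genes, 8.38%, 4.25%, 8.06% and 3.33% were called higher, from Crxos to Oboxa7, and 8.4%, 3.28%, 5.83% and 2.34% lower. A single call among 10 genes, as for Oboxa1 and Oboxa7, is near these shares. For the within-set fit the shares are those given above. The list shares Htra1 and Htra3 with the proteases. Esm1, an endothelial proteoglycan, fell in Crxos cells (-2.06, SE 0.30, adjusted p = 0.000641), Oboxa1 cells (-1.35, adjusted p = 0.0106) and Oboxa4 cells (-1.12, adjusted p = 0.0137), and within the sets it was called lower after all 4 genes, at -1.17 for Crxos, -1.27 for Oboxa1, -1.42 for Oboxa4 and -1.12 for Oboxa7. Of the matricellular CCN family, Wisp2 rose in Crxos (0.85), Oboxa1 (0.99) and Oboxa4 cells (1.09), and within the sets also in Oboxa7 cells (0.74). Wisp1 rose in Crxos cells (1.57), and within the sets after all 4 genes, at 1.01, 0.91, 0.64 and 0.64. Ctgf fell in Oboxa4 cells (-0.63), and within the sets also in Oboxa1 cells (-0.37), while Cyr61 rose in Oboxa7 cells (0.45). Crim1, a transmembrane regulator of bone morphogenetic proteins, fell in Crxos cells (-0.43), as did Nov, another CCN protein (-0.93), which within the sets was not called in Crxos cells (-0.17, adjusted p = 0.0847) but was lower in Oboxa1 cells (-0.59) and Oboxa7 cells (-0.48), and Kazald1 rose in Oboxa4 cells (0.54). Htra1 and Htra3 are the other 2 that rose in Crxos cells (0.35 and 1.55), with Htra1 not called within the sets (0.27, adjusted p = 0.108), and Htra3 is the other that rose in Oboxa4 cells (0.90). The within-set fit called 3, 3, 4 and 4 higher and 2, 3, 2 and 2 lower.

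Several genes outside these lists followed an IGF gene closely from library to library. Across the 15 libraries, the 3 genes with the highest Pearson r of log2 CPM were Col3a1, a fibrillar collagen (0.97), Kcnma1 (0.96) and Dlg2 (0.96) for Igf1. For Igf2 they were Olfml3 (0.96), Adm2 (0.95) and Trib3 (0.95), and for Igfbp2 they were Acta2, smooth muscle actin (0.96), Mmp23 (0.93) and Ddr1 (0.93). For Igfbp3 the first 2 were Cpxm1 (0.98) and Sulf2 (0.97), and for Igfbp5 the 3 were Sema5a (0.99), Srpx (0.99) and Timp3 (0.99). Over the 10 libraries of the larger set alone the values for the pairs named were 0.92 to 0.98. The libraries share their conditions and their sets, so these values describe likeness only.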

How the data were processed

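Poly-A enriched RNA of 15 libraries was sequenced with paired-end reads. The authors aligned the reads to GRCm38/mm10 with STAR and deposited raw counts of reads per protein-coding gene from featureCounts, which were not normalized or filtered. The sources used here give neither versions nor how strand and multiply mapped reads were handled. Gene lengths are those of the deposited table, and 0 of its columns were left unused.

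Counts were scaled by TMM, genes kept by filterByExpr (14012) were tested in 1 model of all 15 libraries with the quasi-likelihood method of edgeR (version 4.0.16, with limma 3.58.1 under R 4.3.3), and p-values were adjusted by Benjamini-Hochberg over all of them. A gene was called at an adjusted p under 0.05 and a fold change above 1.25. Levels are CPM after TMM, and RPKM where genes are compared with each other. Log2 fold changes use a prior count of 0.125. At these depths the spread between libraries sets the precision. The test was checked on simulated counts.

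The alternatives were the Wald test of DESeq2 1.42.0, its size factors within edgeR, upper-quartile factors, no filter, a model of the compared groups only, a minimum of 1 CPM in 3 libraries, no fold threshold, glmTreat, a replicate block, a set term, the within-set fit and leaving out each library. A fit of the larger set alone and Crxos against Oboxa1 replicate 3 were added after the data had been seen.

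The IGF genes, the lists and the tests were chosen with earlier results of these data known. Named are all 10 IGF genes, up to 4 called genes with the smallest p per list and comparison, and for 5 of the IGF genes the 3 most similar others, of which 1 is not reported here. Pappa, Stc2, Plau, Nov and Htra1 in Crxos cells fall outside this rule and were named after their values had been seen. Shares are of the 6 binding proteins tabled here. Coordinates and upstream windows come from RefSeq (GRCm38.p6), in which all 10 genes were found. Protein sequences were not used here.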

Additional observations from a re-analysis of the deposited data

How the results depend on the processing

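The 15 calls of an IGF gene against control kept their direction in all 398 repeats over the alternatives and left-out libraries, and their call in 377. Igf1, Igfbp2, Igfbp4 and Igfbp5 in Crxos cells, Igf1 and Igfbp2 in Oboxa4 cells and Igfbp2 in Oboxa7 cells were called in every repeat. Calls of Igf2, Igfbp6 and Igfbp7 in Crxos cells, Igfbp3 in Oboxa4 cells and Igf1 in Oboxa7 cells were lost under glmTreat, which tests against the minimum fold change itself. Whether the 2 sets of libraries reflect culture, date or preparation was not tested. Counting error limits only Igf1, with 120 to 523 reads per library.

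Counts of the 10 genes called higher against control changed as follows. For Crxos there were 6, and 3 with glmTreat, 5 each with no filter (Igfbp6 was lost) and with only the compared groups, 7 with a term for the sets and 4 to 6 with a library left out. All tested genes went to 414 with glmTreat, 1125 with no filter, 932 with only the compared groups and 918 with the term, against 1174. For Oboxa1 there were 3, and 0 with only the compared groups and 5 each with DESeq2, within the sets, with a term for the sets and in the larger set alone, where all tested genes went to 49, 727, 1248, 1186 and 1438, against 595. Oboxa1 also had 4 each with DESeq2 size factors, upper-quartile factors, no filter, a minimum of 1 CPM in 3 libraries and no fold threshold. All tested genes went there to 609, 609, 566, 588 and 797. For Oboxa4 there were 3, and 2 with glmTreat, 4 with no fold threshold (1507 of all tested genes) and 5 each within the sets, with a term for the sets and in the larger set alone, where all tested genes went to 1780, 1538 and 1815, against 1129. For Oboxa7 there were 2, and 1 with glmTreat and 4 each within the sets, with the term and in the larger set alone, where all tested genes went to 1068, 858 and 1090, against 466. Called lower were 1 for Crxos, and 2 with no fold threshold, and 0 for each Obox gene, and 1 each within the sets, with the term and in the larger set alone. All tested genes called lower went to 1821 for Crxos with no fold threshold, against 1177. With the term they went to 749, 882 and 475 for Oboxa1, Oboxa4 and Oboxa7, against 460, 817 and 328. In the larger set alone they went to 956, 1046 and 594. Leaving out a library gave 1 to 2 of the 10 genes lower for Crxos (2 without control replicate 1), 3 to 5 higher for Oboxa1 (5 without control replicate 2) and 0 to 1 lower for Oboxa1 (1 without control replicate 1).

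Over all tested genes, glmTreat called 414 higher in Crxos cells, 128 in Oboxa1 cells, 212 in Oboxa4 cells and 66 in Oboxa7 cells and 331, 51, 110 and 14 lower, where the test without it called 1174, 595, 1129 and 466 higher and 1177, 460, 817 and 328 lower. With only the compared groups the Oboxa1 counts were 49 higher and 18 lower.

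Of Oboxa4 against Oboxa7, 0 were called higher, and 2 each with only the compared groups, within the sets, with the term and in the larger set alone, 1 with DESeq2 and 0 to 1 with a library left out (1 without Oboxa1 replicate 3). All tested genes called higher went to 209, 267, 135, 284 and, with DESeq2, 46, against 7. Of Oboxa1 against Oboxa7, 0 were called higher, and 2 each within the sets and in the larger set alone, 1 each with the term and DESeq2 and 0 to 1 with a library left out (1 without control replicate 1). Here all tested genes called higher went to 99, 87, 15 and, with DESeq2, 43, against 3. Between Crxos and the averaged Obox genes, 2 were higher and 1 lower. These became 1 and 0 with glmTreat, 0 and 0 with the term, and 3 and 3 with no fold threshold. All tested genes went there to 119 and 197, 0 and 1, and 2062 and 2140, against 1099 and 1353. They became 1 to 2 higher (1 without any 1 of the 3 Crxos libraries) and 0 to 1 lower (0 without Crxos replicate 1) with a library left out. The within-set fit gives no value for this comparison, and the cause of these changes was not tested.

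Changes of sign were found only where the value was not called in the fit of all 15 libraries, except for Igfbp7 between Crxos and the averaged Obox genes, at -0.10 with the term. Igfbp7 for Oboxa4 was 0.58 within the sets, 0.54 with the term and 0.59 in the larger set alone. Igf1r for Oboxa7 was -0.029, -0.0046 and -0.027, and Igf2r for Oboxa7 was -0.070, -0.027 and -0.067 in the same order. With a library left out, values ranged from -0.14 to 0.034 for Igf1r and -0.13 to 0.0047 for Igf2r in Oboxa1 cells, and from -0.11 to 0.064 for Igf1r and -0.26 to 0.59 for Igfbp7 in Oboxa4 cells. In Oboxa7 cells they ranged from -0.051 to 0.049 for Igf2, -0.029 to 0.14 for Igf1r, -0.069 to 0.069 for Igf2r, -0.32 to 0.014 for Igfbp4, -0.0091 to 0.15 for Igfbp6 and -0.18 to 0.67 for Igfbp7.

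The deviations of same-numbered replicates had r of -0.49 to 0.44 over 30 pairs of libraries, 3 above 0.1. The lowest and the highest were between Oboxa1 and control, which the sets split. Between Oboxa4 and Oboxa7, both in the larger set, r was 0.16, 0.19 and 0.087 for same numbers and -0.21 to 0.066 for different numbers. The samples were treated as sharing only a number, and whether the split of the libraries masks a pairing was not tested. A replicate block gave 6 higher and 1 lower for Crxos, 4 higher for Oboxa1, 3 for Oboxa4 and 2 for Oboxa7, the added call being Igf2 in Oboxa1 cells, and 8 of the 15 libraries correlated best with their own number.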
